A study of Mus musculus with 14 samples.

Results

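The genotype effect described here is that of Vipr2 loss in the suprachiasmatic nucleus (SCN) of mice with no exercise schedule. It compares 3 libraries from Vipr2-/- mice with 4 from wild-type mice, which are 7 of the 14 libraries of the series, and every library labelled with either genotype and no scheduled voluntary exercise was used. Wild-type animals were C57BL/6 mice from a commercial breeder. Vipr2-/- animals, which lack the receptor VPAC2, were on a C57BL/6 background and descended from a separately donated breeding stock, so stock and genotype cannot be told apart. Both groups were mostly adult males over 8 weeks of age. Each spent 14 days in 12 h of light and 12 h of darkness, was then left to free-run in constant darkness, and was killed at circadian time 14. Vipr2-/- mice without a behavioural rhythm had been left out by the authors, so the knockout group holds selected animals. The SCN was cut by laser from 20 µm sections stained with cresyl violet, and its total RNA was sequenced as paired ends. The other 7 libraries, from mice of both genotypes under scheduled voluntary exercise (SVE), entered the filter on low values and the estimate of spread, set the levels by which zeros were counted, and gave the same contrast under exercise. Whether each library is 1 animal is not stated in the labels. The tests therefore weigh a difference against the variation among libraries, part of which may be technical.

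VPAC2 is the receptor through which SCN neurons receive vasoactive intestinal polypeptide (VIP), a peptide released by cells of the ventral SCN. It couples through stimulatory G proteins to adenylyl cyclase, and the cAMP formed acts on protein kinase A and on CREB, a transcription factor that binds cAMP response elements. The signal keeps SCN neurons synchronous and sustains their daily firing, and mice without the receptor show weak or disordered activity rhythms in constant darkness.

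Values are the deposited normalized read counts. The 7 libraries held 19706429 to 48794679 reads. A gene was tested when 3 or more of the 14 libraries had a value of 10 or above, which held for 18175 of 55401 genes. Of the tested genes, 8.23%, 7.13%, 4.56% and 7.86% had no read in wild-type libraries 1 to 4, and 11.2%, 11.8% and 20.7% had none in Vipr2-/- libraries 1 to 3. The mean share was 14.5% ± 5.32 (SD, n = 3) in Vipr2-/- and 6.94% ± 1.66 (n = 4) in wild type. The groups did not overlap, and the difference of 7.60 percentage points had an exact two-sided permutation p of 0.0571, the smallest that 3 against 4 libraries can give. Vipr2-/- library 3 stood apart in this share although it was the deepest of its group. Wild-type library 2 stood apart in its immediate-early genes. Results are therefore given separately for genes with reads in all 7 libraries and for genes with a 0, and counts are also given without Vipr2-/- library 3.

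Vipr2 itself (chromosome 12, 116077726 to 116146261, GRCm38) separated the genotypes. Its values were 6247, 6796, 7042 and 6538 in the wild-type libraries and 173, 144 and 218 in Vipr2-/-. Each Vipr2-/- library lay far below the lowest wild-type one, though none was at 0. The log2 fold change, Vipr2-/- over wild type in limma as in all that follows, was -5.23 ± 0.26 (SE, adjusted p = 1.55e-08).

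In limma more genes were called lower than higher. At a Benjamini-Hochberg adjusted p under 0.05, here named a call, limma called 111 of 18175 genes (0.611%), of which 23 were higher (0.127%) and 88 lower (0.484%) in Vipr2-/-. Among the 13449 genes with reads in all 7 libraries, 67 were called (0.498%), 21 of them higher (0.156%) and 46 lower (0.342%). The remaining 4726 genes had 0 reads in at least 1 library, and 44 of these were called (0.931%), 2 higher (0.0423%) and 42 lower (0.889%). Genes with reads throughout moved modestly. The called ones had a median log2 fold change of -1.05 when lower and 0.86 when higher, 33 of the 67 changed less than 2-fold, and the median over all 13449 genes was -0.02. Their groups did not overlap in 1657 genes (12.3%), 858 higher (6.38%) and 799 lower (5.94%). The groups overlapped in none of the 111 called genes, so lack of overlap adds no separate support to a call.

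**Figure D1:**
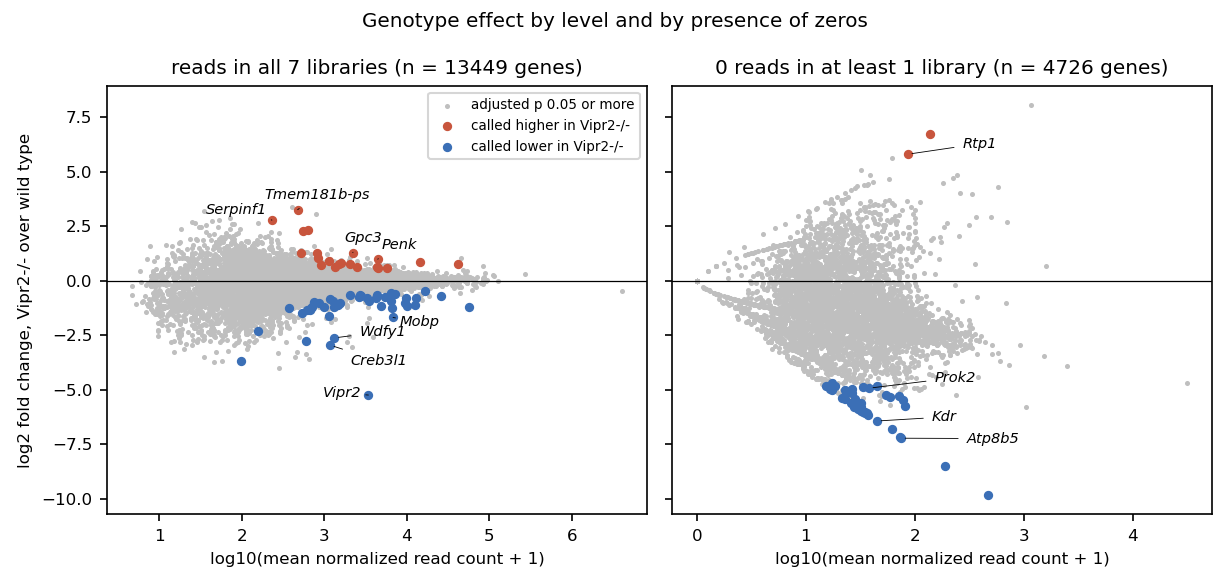
Log2 fold change (y axis) against log10 of the mean normalized read count plus 1 (x axis) for the 13449 genes with reads in all 7 libraries (left) and the 4726 with a 0 in at least 1 (right), one point per gene, with called genes in colour. On the left called genes lie on both sides of 0, 46 lower and 21 higher, while on the right 42 of 44 lie below it.

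Those counts depended on the libraries and on the model. Without Vipr2-/- library 3, 66 genes with reads throughout were called, 13 higher and 53 lower, and 43 of them were among the 67. Leaving out 1 library at a time gave 22 calls without wild-type library 3, 31 without library 2, 33 without library 1 and 38 without library 4, but 134 without Vipr2-/- library 1 and 135 without library 2. In edgeR's quasi-likelihood test 59 of these genes were called (0.439%), 15 higher (0.112%) and 44 lower (0.327%). In DESeq2 309 were called (2.3%), 67 of which were the genes above, and the excess of lower calls was absent there, with 156 higher (1.16%) and 153 lower (1.14%). Over all tested genes edgeR called 79 (0.435%, with 0.0935% higher and 0.341% lower) and DESeq2 536 (2.95%, with 0.957% higher and 1.99% lower). At an unadjusted p under 0.05 limma had 2605 (14.3%), with 4.89% higher and 9.45% lower. These shares over all tested genes stand beside the unadjusted counts given for lists below, but not as like with like. They include the genes with a 0, whose median log2 fold change was -1.52, while most listed genes had reads throughout. The unadjusted shares among genes with reads throughout are not given here. A fit to the 7 libraries alone called 22 of the genes with reads throughout. Among the 50 called genes named below under the naming rule, that fit kept 20 calls. Vip, Avp, Sst, Vgf, Prok2 and Penk were not called there, with adjusted p from 0.0626 (Vgf) to 0.17 (Sst). Chga, Sod3, C1ql3, Tspan14, Wdfy1 and Serpinf1 also lost their calls there. EdgeR kept 41 of the 50 calls, losing those of Adam8, Avp, Gapdh, Gm21985, Lmo7, Myo5b, Nkx6-2, Prok2 and Psmc3ip. With the share of genes at 0 in each library as a covariate, which was added after the data were seen and which is higher in every Vipr2-/- library than in any wild-type one, 8 of the genes with reads throughout were called. Of the 50 called genes named below under the naming rule, 11 kept their call with that covariate: Vipr2, Mobp, Creb3l1, Wdfy1, Gpc3, Tmem181b-ps, Tmem254b, Tmem254c, Gm1848, Gm49527 and Kdr. In the 31 with reads throughout that lost their call, the log2 fold change with the covariate was 65.6% to 108% of that without it (median 92.5%), and in the 8 with a 0 it was 64.5% to 99.0%, with no change of sign.

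Among peptides secreted by SCN neurons, 6 genes were called. Of 20 listed genes 17 were tested and 14 had reads throughout. Of the 17, 5 were called lower (Vip, Avp, Sst, Vgf and Prok2), 1 was called higher (Penk), and 11 did not pass. EdgeR called Vip, Sst, Vgf and Penk and not Avp (adjusted p = 0.0649) or Prok2 (adjusted p = 0.175), and DESeq2 called all 6 and Pdyn, which encodes the dynorphin precursor. The median log2 fold change of the 14 was -0.14.

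Vip encodes the missing receptor's own ligand. Its normalized read counts were 7507, 9848, 9398 and 7196 in wild type and 3772, 5027 and 4592 in Vipr2-/-, and the groups did not overlap. It fell by 0.92 ± 0.17 on the log2 scale (adjusted p = 0.0191). The call of Vip was lost without wild-type library 2 or 3 (adjusted p up to 0.0757).

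Avp encodes vasopressin, the main peptide of the dorsal SCN. Its values were 12873, 13164, 14959 and 13214 in wild type and 8409.7, 3809 and 7357 in Vipr2-/-, with library 2 the lowest and no overlap. The log2 fold change was -1.13 ± 0.23 (adjusted p = 0.0341). The call of Avp was lost without wild-type library 1, 2, 3 or 4 or Vipr2-/- library 2 (adjusted p up to 0.11).

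Sst encodes somatostatin, an inhibitory peptide. Values were 6424, 5407, 8170.3 and 6681 in wild type and 3109.9, 1904 and 4272 in Vipr2-/-, again lowest in Vipr2-/- library 2 and without overlap. It fell by 1.17 ± 0.21 on the log2 scale (adjusted p = 0.0191). The call of Sst was lost without wild-type library 1, 3 or 4 (adjusted p up to 0.0757).

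Vgf encodes a precursor that is cut into several neuropeptides. Its counts were 16856, 15920.4, 18434 and 17191 in wild type and 8000.4, 6052 and 10424 in Vipr2-/-, each Vipr2-/- value being below the lowest wild-type one. The fall of -1.10 ± 0.17 (adjusted p = 0.0075) kept its call whichever library was left out.

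Prok2 encodes prokineticin, a secreted output signal of the SCN clock. It had few reads, with values of 108, 55.7, 74.0 and 44.1 in wild type and 10.2, 0 and 0 in Vipr2-/-. All 3 Vipr2-/- values lay below the wild-type range and 2 of them were 0, so the fitted change of -4.92 (adjusted p = 0.0361) depends on the pseudocount. The call of Prok2 was lost without wild-type library 1, 2, 3 or 4 or Vipr2-/- library 2 or 3 (adjusted p up to 0.118).

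Penk, the precursor of the enkephalin opioid peptides, moved the opposite way. Its values were 2852, 2451, 3180.3 and 3259.8 in wild type and 5709, 4733 and 7332 in Vipr2-/-, with every Vipr2-/- library above every wild-type one. The rise of 1.00 ± 0.14 on the log2 scale (adjusted p = 0.00447) kept its call in all 7 omissions. With the share of genes at 0 as a covariate, adjusted p-values for these 6 peptide genes lay between 0.0792 (Vgf) and 0.327 (Avp), and the log2 fold changes were -0.77 for Vip, -0.94 for Avp, -1.18 for Sst, -1.18 for Vgf, -4.87 for Prok2 and 0.80 for Penk.

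**Figure D2:**
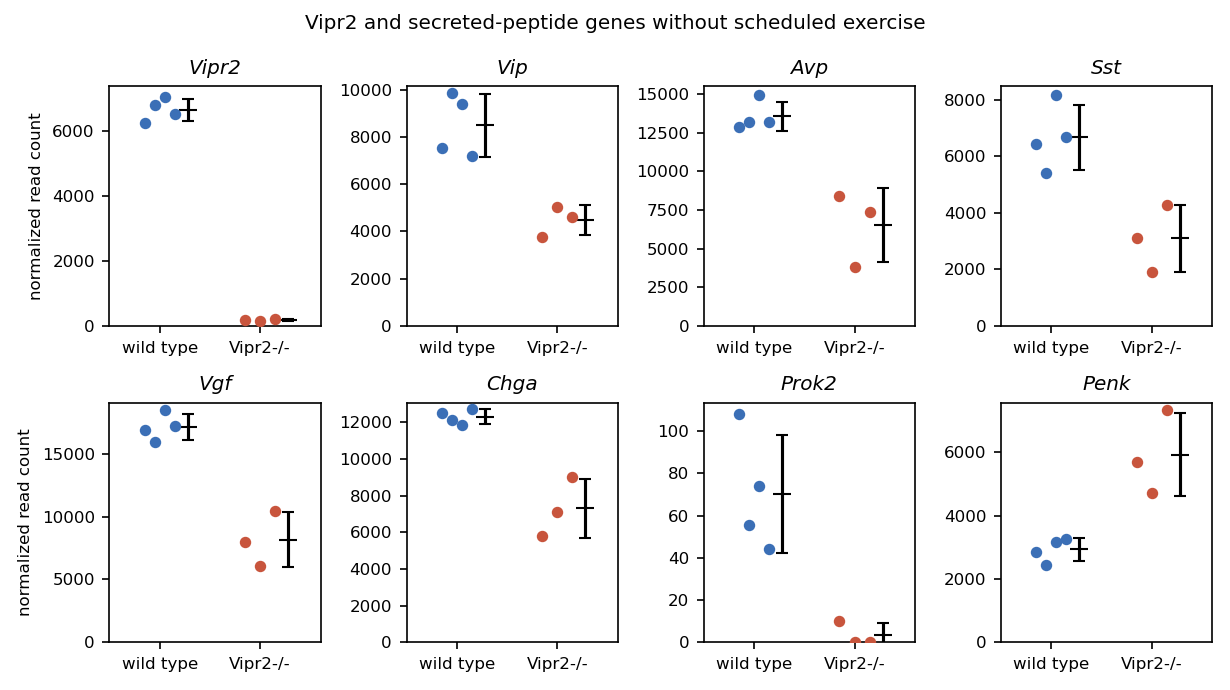
Normalized read counts (y axis, from 0) of Vipr2 and 7 secreted-protein genes in the 4 wild-type (blue) and 3 Vipr2-/- (red) libraries, one point per library, with the mean and SD in black. The genotypes do not overlap in any panel, and Penk is the panel in which Vipr2-/- is the higher group.

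Other peptide genes did not pass the test. Pdyn, the prodynorphin gene and thus also an opioid precursor, had 87.2, 118, 109 and 51.7 in wild type and 197, 406 and 468 in Vipr2-/-. Its groups did not overlap, but the adjusted p was 0.12. Grp, which encodes gastrin-releasing peptide of the ventral SCN, ran from 806 to 1324 in wild type and 1187 to 1777 in Vipr2-/- (adjusted p = 0.231). Nms, the neuromedin S gene, had 743 to 853 and 788 to 1187 (adjusted p = 0.423). Ranges overlapped for both. Scg2, which encodes the granin secretogranin, lay at 67666 to 77043 in wild type and 60445 to 64359 in Vipr2-/- (adjusted p = 0.402).

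The upstream sequences of Vip, Avp, Sst and Prok2, lower peptide genes, and of Chga, a lower granule gene described next, are shown because the missing receptor signals through cAMP and because several of these genes are targets of clock factors. Each line is the 250 bases before the annotated start from RefSeq (GRCm38.p6), 5′ to 3′ on the gene's strand, with capitals marking TGACG, the core of the cAMP response element, TGACGTCA, its full form, or CACGTG, the E-box of clock factors. These 3 words were searched on both strands, and the full element contains the core on each strand. The windows are chr10:5638968-5639217 on the plus strand (Vip), chr2:130582589-130582838 minus (Avp), chr16:23890845-23891094 minus (Sst), chr12:102554691-102554940 plus (Chga) and chr6:99726393-99726642 minus (Prok2).
Vip: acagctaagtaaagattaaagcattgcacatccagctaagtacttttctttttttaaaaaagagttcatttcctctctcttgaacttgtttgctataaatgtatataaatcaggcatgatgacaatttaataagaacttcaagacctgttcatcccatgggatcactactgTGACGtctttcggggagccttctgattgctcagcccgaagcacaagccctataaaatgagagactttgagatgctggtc
Avp: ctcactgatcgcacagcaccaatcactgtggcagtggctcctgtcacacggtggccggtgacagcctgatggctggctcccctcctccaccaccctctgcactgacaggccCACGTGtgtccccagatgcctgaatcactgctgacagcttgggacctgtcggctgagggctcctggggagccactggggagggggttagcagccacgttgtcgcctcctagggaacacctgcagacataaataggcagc
Sst: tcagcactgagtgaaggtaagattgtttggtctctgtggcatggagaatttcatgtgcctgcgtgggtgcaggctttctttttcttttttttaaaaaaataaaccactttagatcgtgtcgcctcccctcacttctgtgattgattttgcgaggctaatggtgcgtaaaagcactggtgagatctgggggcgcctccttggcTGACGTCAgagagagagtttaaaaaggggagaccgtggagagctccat
Chga: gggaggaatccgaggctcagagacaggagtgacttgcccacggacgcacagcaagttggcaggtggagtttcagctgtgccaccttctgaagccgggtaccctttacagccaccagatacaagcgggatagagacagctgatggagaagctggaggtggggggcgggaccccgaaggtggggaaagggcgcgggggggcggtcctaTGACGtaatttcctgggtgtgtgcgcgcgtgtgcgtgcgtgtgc
Prok2: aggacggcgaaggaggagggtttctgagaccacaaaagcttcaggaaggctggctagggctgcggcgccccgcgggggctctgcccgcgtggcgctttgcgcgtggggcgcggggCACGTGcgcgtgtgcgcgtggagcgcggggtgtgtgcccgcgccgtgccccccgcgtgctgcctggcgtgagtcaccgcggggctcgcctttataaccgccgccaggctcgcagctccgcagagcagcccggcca

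Sst carried the full element 48 bases before its start, Vip a core 79 bases and Chga one 44 bases before it. Avp and Prok2 carried an E-box at 139 and 135 bases. Vgf and Penk were not matched in the promoter table. Over all 32851 RefSeq promoters of this length, 17.8% held the core, 1.55% the full element and 6.02% the E-box. Promoters of genes with reads in all 7 libraries held the core in 26.4% of 12293, the full element in 2.55% and the E-box in 8.40%. Among called genes, the core stood in 18.2% of the 44 promoters of 31 lower genes, and in 12.0% of the 25 promoters of 17 higher genes. The full element stood in 2.27% of the lower and 0% of the higher promoters, and the E-box in 11.4% and 0%. Matches are a description of letters only.

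The machinery that packs and processes peptides changed in 1 member. Of 15 listed genes, all with reads throughout, Chga was called lower and 14 did not pass, with a median of 0.00. Chga encodes chromogranin A, a core protein of secretory granules. It stood at 12521, 12113, 11840.3 and 12715 in wild type and 5805, 7099.9 and 8990.5 in Vipr2-/-, without overlap. The change of -0.78 ± 0.14 (adjusted p = 0.0152) kept its call in all 7 omissions. Creb3l1, a transcription factor held in the endoplasmic reticulum that in rat hypothalamus acts on the vasopressin gene, had the largest fall, after Vipr2, among called genes whose wild-type values all exceeded 1000. Its values were 2302, 2033, 1616 and 2333 against 215, 234 and 369.6, far from overlap. The log2 fold change was -2.95 ± 0.35 (adjusted p = 0.000539), and the call also held in all omissions.

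Receptors for SCN peptides other than Vipr2 gave no call. Of 30 listed genes 25 were tested and limma called 0, with 2 higher and 3 lower at an unadjusted p under 0.05. EdgeR called 0 and DESeq2 1. Calcr, the calcitonin receptor, had the smallest p. It ran at 1074, 1299, 1105 and 861 in wild type and 2676, 2067 and 1596 in Vipr2-/-, without overlap (log2 fold change 0.94 ± 0.22, adjusted p = 0.0719). Prokr2, the receptor for prokineticin, had 5319, 6028, 5852 and 5694 and 4259, 4843 and 3835, also without overlap (-0.41 ± 0.13, adjusted p = 0.183).

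Downstream of the receptor, transcripts of the cAMP pathway gave no call. Of 32 tested genes for adenylyl cyclases, protein kinase A, phosphodiesterases and CREB factors, limma called 0, with 6 higher and 2 lower at an unadjusted p under 0.05. EdgeR called 0 and DESeq2 2, both higher, and the median was 0.06. Adcy2, an adenylyl cyclase, had 4543, 4653, 4242 and 5428 in wild type and 6044, 5886 and 6011 in Vipr2-/- (log2 fold change 0.35 ± 0.09, adjusted p = 0.114). Its groups did not overlap. Among 20 G protein regulators 1 was called, Rasd1, a small G protein that in mice tunes the clock's response to light. Its values were 12158, 6661, 9678 and 8632 in wild type and 3941, 3196 and 4338 in Vipr2-/-, without overlap. The fall of -1.26 ± 0.24 had an adjusted p of 0.0236. The call of Rasd1 was lost without wild-type library 1, 3 or 4 or Vipr2-/- library 2 (adjusted p up to 0.082).

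Immediate-early genes, which mark recent neuronal activity and include CREB targets, had mostly negative log2 fold changes, without a call. Of 25 listed, 24 were tested and 21 had reads throughout, and 20 of those 21 had a log2 fold change below 0, against 52.2% of all genes of that kind, with a median of -0.80 against -0.02. Limma called 0, with 0 higher and 7 lower at an unadjusted p under 0.05. EdgeR called 0 and DESeq2 2, both lower. Wild-type library 2 weighed on this list. The summed level was 84843 there and 18081 to 24666 in the other wild-type libraries, beside 18590 to 20309 in Vipr2-/-. Fos stood at 1326, 8106, 587 and 562 in wild type and 419, 1219.6 and 1145 in Vipr2-/-, with an adjusted p of 0.655, and its log2 fold change turned from -0.71 to 0.14 without wild-type library 2. Fosb had 129, 3408, 361 and 405 and 76.9, 112 and 113, where the groups did not overlap with library 2 or without it (adjusted p = 0.215). Nr4a3, an orphan nuclear receptor, likewise lay at 805 to 2264 and 331 to 631 (adjusted p = 0.23).

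The clock's own genes gave no call at circadian time 14. Of 22 core and output genes, all tested and 20 with reads throughout, limma called 0, with 3 higher and 3 lower at an unadjusted p under 0.05. EdgeR called 0, and DESeq2 called 3 higher (Dbp, Nr1d1 and Tef) and 1 lower (Per2). Groups did not overlap in 8 of the 20, 4 in each direction. Over all genes with reads throughout they did not overlap in 12.3%, 6.38% higher and 5.94% lower. Per2, a negative limb gene, had 4778, 3692, 3996 and 4124 in wild type and 1889, 1729.8 and 2802 in Vipr2-/- (log2 fold change -0.98 ± 0.25, adjusted p = 0.105). Nr1d1, which encodes the repressor REV-ERB alpha, had 4523, 4948, 3622 and 4206 and 6874, 6306 and 8263 (0.72 ± 0.17, adjusted p = 0.0799). Dbp, an output factor driven through E-boxes, had 3216, 3452, 3105 and 2987 and 8180.4, 5109.7 and 4952 (0.89 ± 0.24, adjusted p = 0.114). Thus each Vipr2-/- value lay below the wild-type range for Per2 and above it for the other two. Tef, a relative of Dbp, had 6004 to 8786 in wild type and 9362 to 11814 in Vipr2-/- (adjusted p = 0.0923). Per1 showed no separation, at 2799 to 4266 and 2911 to 4044. Kinases and ubiquitin ligases of the clock gave 0 calls of 17 in limma, edgeR and DESeq2, with 1 higher and 1 lower at an unadjusted p under 0.05.

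Genes of fast transmission held few calls. Of 23 genes for GABA, the transmitter of nearly all SCN neurons, limma, edgeR and DESeq2 called 0, with 3 higher and 1 lower at an unadjusted p under 0.05. Their log2 fold changes were above 0 in 17 of the 22 with reads throughout, against 47.8% of all such genes, and the median was 0.16. Gad2, a GABA-synthesizing enzyme, had 13656, 14546, 13533 and 14903 in wild type and 18540.5, 16374 and 17517 in Vipr2-/-, without overlap (adjusted p = 0.23). The 32 glutamate receptor and scaffold genes held 1 call. Grik4, a kainate receptor subunit, rose from 979 to 1185 to 1505 to 1698 (log2 fold change 0.62 ± 0.12, adjusted p = 0.0236). The call of Grik4 was lost without wild-type library 2, 3 or 4 or Vipr2-/- library 3 (adjusted p up to 0.082). Potassium channels, 33 tested, also held 1 call, Kcnc2, a subunit of fast delayed rectifiers that permit rapid firing. It was even among wild-type libraries, at 3212, 3301, 3297 and 3262, and more spread in Vipr2-/-, at 2059, 1642 and 2219, without overlap. It fell by 0.74 ± 0.13 on the log2 scale (adjusted p = 0.0149), a call lost without wild-type library 3 (adjusted p up to 0.0568). Calcium, sodium, leak and HCN channels (22 tested) and vesicle release genes (35 tested) held 0 calls in limma, edgeR and DESeq2. At an unadjusted p under 0.05 they had 3 higher and 2 lower, and 6 higher and 4 lower.

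Monoamine genes held 1 call. Of 26 listed, 21 were tested, 1 was called higher and 0 lower, and 15 of the 19 with reads throughout had a log2 fold change above 0, with a median of 0.14. The called gene was Ddc, the decarboxylase that makes dopamine and serotonin, at 610.3, 634, 563 and 376 in wild type and 885, 1433 and 1051 in Vipr2-/-. Groups did not overlap, and the rise was 1.04 ± 0.21 (adjusted p = 0.0349). The call of Ddc was lost without wild-type library 1, 2, 3 or 4 or Vipr2-/- library 2 or 3 (adjusted p up to 0.0872). At an unadjusted p under 0.05 the list had 6 higher and 4 lower. The following members were picked out after their values were seen. Hrh3, a histamine autoreceptor, missed the threshold by little, with 2519, 2464, 1908 and 2143 against 4534, 3884 and 3305 (adjusted p = 0.0501). Maob, a monoamine oxidase, had 503, 294, 302 and 305 against 702, 702 and 743 (adjusted p = 0.112). Slc18a2, the vesicular monoamine transporter, had 91.7, 90.1, 68.1 and 40.3 against 202, 153 and 443 (adjusted p = 0.114). In these 3 genes every Vipr2-/- library exceeded every wild-type one, and DESeq2 called all 3. Gch1, which makes a cofactor of monoamine synthesis, lay the other way at 59.8 to 166 in wild type and 3.37 to 30.6 in Vipr2-/- (adjusted p = 0.285).

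Other called falls with reads throughout included genes for secreted proteins. C1ql3, a secreted organizer of synapses, had 1142, 1353, 944 and 669 in wild type and 245, 184 and 67.4 in Vipr2-/-. It fell by 2.77 ± 0.39 on the log2 scale (adjusted p = 0.00338), without overlap and in each omission. Sod3, the extracellular superoxide dismutase, was the only 1 of 24 antioxidant genes called, at 694, 1057, 642 and 790.4 against 283, 268 and 299 (log2 fold change -1.46 ± 0.24, adjusted p = 0.0115). Igfbp5, a binding protein of insulin-like growth factors, was the only call among 13 tested genes of that system. Its libraries were tightly grouped at 33022, 34266, 30399 and 31487 in wild type and 20318, 20060.3 and 19566 in Vipr2-/- (-0.69 ± 0.10, adjusted p = 0.00567). Sod3 and Igfbp5 kept their calls in all 7 omissions. Ccn3, a matrix-associated signalling protein, had 1108, 1116, 996 and 739.9 against 373, 492 and 419 (-1.20 ± 0.21, adjusted p = 0.0173). The call of Ccn3 was lost without wild-type library 1, 2 or 3 (adjusted p up to 0.0628).

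Other called falls were those of Wdfy1, Tspan14 and Nnat. Wdfy1, an endosomal adaptor, stood at 2034, 2117, 2195 and 2597 in wild type and 377, 673 and 189 in Vipr2-/- (-2.61 ± 0.30, adjusted p = 0.000427). Tspan14, a tetraspanin, stood at 1664, 1599, 1722 and 1767 and 937, 550.0 and 316 (-1.63 ± 0.25, adjusted p = 0.00603). Both kept their calls in all 7 omissions and neither overlapped. Nnat, an imprinted gene for a small membrane protein of the endoplasmic reticulum, stood at 86728, 94483, 72664 and 64488 in wild type and 33459, 34435 and 36495 in Vipr2-/- (-1.18 ± 0.22, adjusted p = 0.0191). The call of Nnat was lost without wild-type library 1, 2 or 3 (adjusted p up to 0.0661). Among 30 tested imprinted genes, Nnat was the only call downward and Ddc the only one upward.

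The calls of 6 further falls did not survive every omission. Sertm1 fell from 671 to 1090.3 to 278 to 385, Cox17, a copper chaperone of cytochrome oxidase, from 822 to 1148 to 346 to 448, and Tmem121 from 1126 to 1686 to 537 to 720.1. Rnf8, a ubiquitin ligase of the DNA damage response, fell from 357 to 660.0 to 173 to 241 and Kctd18 from 161 to 307 to 36.8 to 69.7. Adam8, a membrane protease, fell from 78.1 to 224 to 3.06 to 63.9, with 1 library carrying most of its Vipr2-/- reads. Log2 fold changes in these 6 genes were -1.34, -1.23, -1.18, -1.26, -2.28 and -3.67, in the order named, with adjusted p between 0.0191 and 0.0375. None overlapped. Their calls were lost in some omissions: for Sertm1 without wild-type library 1, 2 or 3 or Vipr2-/- library 3 (adjusted p up to 0.082), for Cox17 without wild-type library 2, 3 or 4 (adjusted p up to 0.0734), for Tmem121 without wild-type library 1, 2, 3 or 4 or Vipr2-/- library 1 or 3 (adjusted p up to 0.118), for Rnf8 without wild-type library 1, 3 or 4 or Vipr2-/- library 3 (adjusted p up to 0.144), for Kctd18 without wild-type library 1, 2 or 3 (adjusted p up to 0.082) and for Adam8 without wild-type library 1, 2, 3 or 4 or Vipr2-/- library 2 or 3 (adjusted p up to 0.123). Some called falls outside the naming rule were singled out after their values were seen, for their known ties to this tissue or pathway. Ppp1r1a, a phosphatase inhibitor that protein kinase A activates, had 1537 to 2488 in wild type and 912 to 1135 in Vipr2-/- (adjusted p = 0.0359). Syt10, a calcium sensor enriched in the SCN, had 1309 to 2322 and 701 to 999.9 (-1.17, adjusted p = 0.0204). Ncor1, a corepressor that acts with REV-ERB proteins, had 4867 to 5549 and 3203 to 3619.6 (-0.64, adjusted p = 0.00567).

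Among the called rises with reads throughout, several of the largest concerned copies and pseudogenes. Serpinf1, described below, rose more than any of them but Tmem181b-ps. Tmem181b-ps, a transcribed pseudogene, had 48.1, 109, 84.6 and 131 in wild type and 930.2, 835 and 792 in Vipr2-/- (3.27 ± 0.38, adjusted p = 0.000472). Tmem254b and Tmem254c, copies of one another, rose from 173 to 205 to 784 to 1061 and from 180.3 to 223 to 873 to 1191 (2.28 and 2.32). Pisd-ps1, also a pseudogene, went from 209 to 366 to 475 to 1030.3 (1.30, adjusted p = 0.0278). Reads of such near-identical genes may have been split between copies, so these values are uncertain as to which copy they count. Tmem181b-ps, Tmem254b and Tmem254c kept their calls in all 7 omissions, and Pisd-ps1 lost its call without wild-type library 1, 2, 3 or 4 or Vipr2-/- library 1 or 3 (adjusted p up to 0.0835).

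Unique genes that rose included Gpc3, a glypican of the cell surface, at 1240.5, 1292, 1147 and 1416 in wild type and 2981, 2889.6 and 3556 in Vipr2-/-. Libraries within a group were close and the rise of 1.30 ± 0.15 (adjusted p = 0.000472) held in each omission and with the covariate. It was the only call among 19 tested glypican and heparan sulfate genes. Serpinf1, which encodes the secreted factor PEDF and was listed as a marker of meninges, rose from 51.7 to 63.6 in wild type to 263 to 487 in Vipr2-/- (2.79 ± 0.44, adjusted p = 0.00762), again in all omissions. The 13 tested choroid plexus and meninges markers had no other call and summed to 2051 to 3322 in wild type and 1952 to 4431 in Vipr2-/-, overlapping. Their part in the rise of Serpinf1 was not tested.

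Glycolytic enzymes gave 2 calls of 23, both higher, with a median of 0.04 over the 21 with reads throughout. At an unadjusted p under 0.05 limma had 2 higher and 3 lower. EdgeR called 1, Aldoc, and DESeq2 called 2 higher and 1 lower, Slc16a3. Aldoc, aldolase C, also an astrocyte marker, had 33509, 29262, 29904 and 29749 in wild type and 52538, 41452 and 63829 in Vipr2-/- (0.76 ± 0.15, adjusted p = 0.0249). Gapdh had 11159.8, 11273, 9425 and 8937 and 17346, 14675 and 24324 (0.86 ± 0.18, adjusted p = 0.0422). Vipr2-/- library 3 was highest for both. The call of Aldoc was lost without wild-type library 1, 2, 3 or 4 or Vipr2-/- library 3 (adjusted p up to 0.0852), and that of Gapdh without wild-type library 1, 2, 3 or 4 or Vipr2-/- library 3 (adjusted p up to 0.131). Further rises were those of Chodl, the chondrolectin gene, from 334 to 540.2 to 702 to 1543, and of Nkx6-2, a homeodomain factor, from 615 to 962 to 1153 to 2033. Lysmd2 rose from 1053 to 1307 to 1979 to 2079, Wdr34, a chain of ciliary dynein, from 1363 to 1672 to 1989 to 3327, and Slc9a3r2, a membrane scaffold, from 983 to 1222 to 1528 to 2448. Adjusted p for these 5 lay between 0.0191 and 0.0466. Their calls did not survive every omission, being lost for Chodl without wild-type library 1, 2, 3 or 4 or Vipr2-/- library 1 or 3 (adjusted p up to 0.0998), for Nkx6-2 without wild-type library 1, 2, 3 or 4 or Vipr2-/- library 2 (adjusted p up to 0.133), for Lysmd2 without wild-type library 2, 3 or 4 (adjusted p up to 0.0757), for Wdr34 without wild-type library 1, 2, 3 or 4 or Vipr2-/- library 3 (adjusted p up to 0.0864) and for Slc9a3r2 without wild-type library 1, 2, 3 or 4 or Vipr2-/- library 3 (adjusted p up to 0.0943). Nkx6-2 and Smarcd3 were the called genes nearest the threshold (adjusted p = 0.0466), and Plxdc1 and Hrh3 the nearest outside it (0.0501).

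Marker genes of cell types placed the tissue and showed few shifts. SCN transcription factors, 22 tested of 23 listed, had 0 calls in limma, edgeR and DESeq2 (4 higher and 0 lower at an unadjusted p under 0.05) and summed to 40330 to 47502 in wild type and 43508 to 45661 in Vipr2-/-. Broad neuronal markers also gave 0 of 15 with all 3 tools, with 1 higher and 0 lower unadjusted. In bulk tissue, fewer cells of a type and less RNA per cell cannot be told apart. Markers of neighbouring hypothalamic neurons were present, led by Oxt, the oxytocin gene, at 7749.9, 4761, 5409 and 3016 in wild type and 5906, 7229 and 5748 in Vipr2-/-, overlapping. Of those 19 markers 14 were tested, 0 were called by any of the 3 tools (0 higher and 2 lower unadjusted), and their sums of 6264 to 12483 and 8905 to 11381 overlapped. Crh, Agrp, Hcrt, Pmch and Kiss1 did not reach the level to be tested.

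Among oligodendrocyte markers the call was Mobp, a structural protein of myelin. It had 12903, 9973, 9496 and 9148 in wild type and 3225, 3179 and 3242 in Vipr2-/-. The 3 Vipr2-/- libraries were nearly equal, and the fall of -1.68 ± 0.14 (adjusted p = 2.1e-05) held in each omission and with the covariate. No other of 20 oligodendrocyte and myelin markers was called, 9 were above 0 and 10 below among the 19 with reads throughout, and their sums were 90620 to 119883 in wild type and 81831 to 93361 in Vipr2-/-, overlapping. Precursors of oligodendrocytes had 0 of 7 called by limma (1 lower unadjusted) and by edgeR, and 1 by DESeq2, Gpr17, at 1634 to 2696 and 955 to 1590.4 (adjusted p in limma = 0.0642). Astrocyte markers had 1 call of 18, Aldoc, and sums of 203143 to 228503 in wild type and 226524 to 250526 in Vipr2-/-, overlapping. Microglial markers had 0 calls of 18 with all 3 tools and 0 higher and 1 lower unadjusted, pericyte and smooth muscle markers 0 of 10 with 1 higher and 0 lower, and ependymal markers 0 of 12 with 0 higher and 2 lower.

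**Figure D3:**
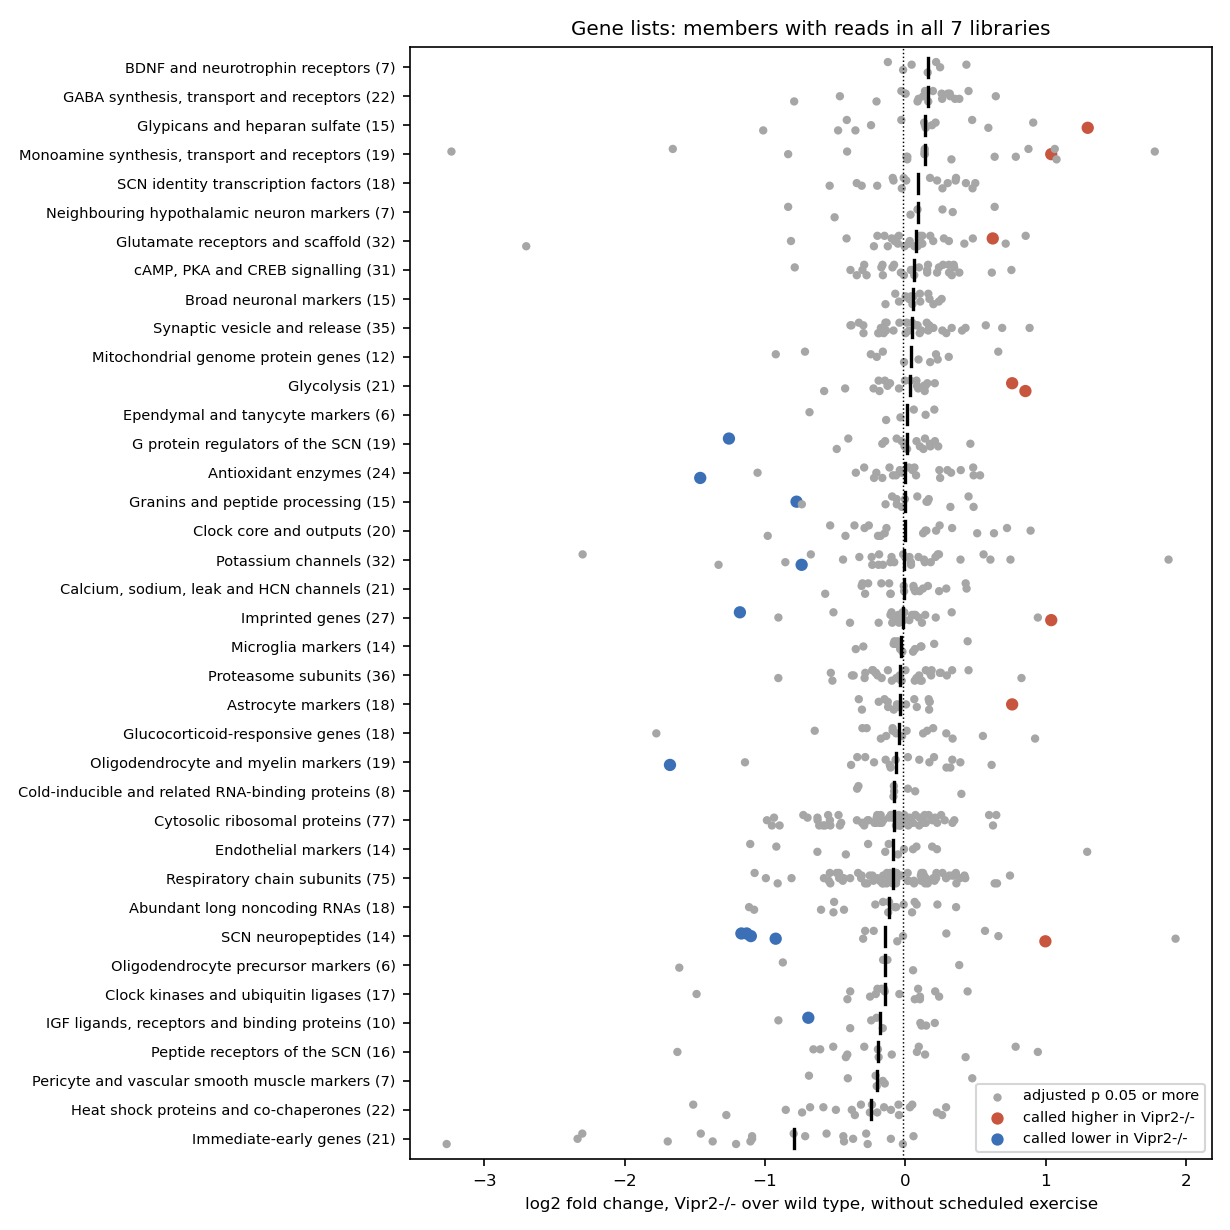
Log2 fold change (x axis) of every list member with reads in all 7 libraries, for the lists with at least 6 such members (number in brackets), ordered by their median (black bar), with the median of all 13449 genes dotted. Called members are coloured, and the immediate-early genes have the lowest median, -0.80, without a coloured point.

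Further housekeeping and stress-related groups, other than the glycolytic and antioxidant genes above, had 0 calls in limma. Cytosolic ribosomal protein genes, 77 with reads throughout, had a median of -0.08, 55 below 0 (71.4%, against 52.2% of all such genes) and 0 calls (3 higher and 13 lower unadjusted), with 0 in edgeR and 2 in DESeq2. Respiratory chain subunits had 0 calls of 76 (10 higher and 6 lower unadjusted), with 0 in edgeR and 3 in DESeq2, and a median of -0.09. Proteasome subunits had 0 of 38 with all 3 tools (1 higher and 2 lower unadjusted). Genes of the mitochondrial genome (13), abundant long noncoding RNAs (23), glucocorticoid-responsive genes (19), cold-inducible RNA-binding proteins (8) and BDNF with related ligands and receptors (10 tested) had 0 calls in limma and edgeR. In that order DESeq2 called 2, 1, 0, 0 and 0, and 2, 6, 0, 1 and 1 passed an unadjusted p of 0.05. Heat shock proteins and co-chaperones lay below 0 in 17 of 22, with a median of -0.25 and 7 members whose groups did not overlap, all lower. Of all genes with reads throughout, 52.2% lay below 0 and 5.94% were lower without overlap. Limma and edgeR called 0 of these 22, 0 higher and 10 lower at an unadjusted p under 0.05, and DESeq2 called 2 lower. Hspa1b, an inducible chaperone, had 439, 203, 359 and 289.9 in wild type and 61.0, 126 and 165 in Vipr2-/- (-1.51, adjusted p = 0.138). Dnajb1, its partner, had 4538, 5715, 4692 and 4084 and 1998, 2928 and 3894 (-0.74, adjusted p = 0.0799). Vipr2-/- library 1 was lowest in both.

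A separate class consisted of genes that had reads in wild type and were at 0 in Vipr2-/-. Of the tested genes 894 were at 0 in all 3 Vipr2-/- libraries, 141 of them with reads in all 4 wild-type libraries, and 32 were called. A call in this class can only be lower, and its genes passed the filter through libraries of other groups. At 0 in all 4 wild-type libraries were 86 genes, of which limma called 0, edgeR 0 and DESeq2 13, and 18 passed an unadjusted p of 0.05 in limma. The classes of 894 and 86 genes need zeros in 3 and in 4 libraries, so their sizes do not compare like with like. A further 3678 genes were at 0 in some libraries but not a whole group, with 12 calls, and 68 were at 0 in all 7. Most of the 894 were low, with a median wild-type mean of 12.0. For genes at 0, fold changes are bounds from a floor of 3 reads over the Vipr2-/- group. The floor covers counting error only. It does not cover zeros like the lone ones beside high values described below, so "at least" holds for counting error alone.

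The called genes with the largest bounds were mixed in kind. Gm21985 had 1257, 1154, 662 and 657 in wild type and was at least 786-fold lower in Vipr2-/-. EdgeR did not call Gm21985 (adjusted p = 0.134), and under SVE it had 50.1, 17.3, 0 and 0 in wild type and 2.37, 665 and 0 in Vipr2-/-, the highest value there being that of Vipr2-/- library 2. Gm49527 had 446, 454, 355 and 241 and was at least 315-fold lower. Gm21985 and Gm49527 are annotated only as predicted protein-coding genes that span long stretches (chromosome 2, 112266314 to 112406319, and chromosome 15, 76879320 to 76901283), and reads shared with overlapping genes cannot be told apart. Atp8b5, a lipid-flipping ATPase, had 144, 157, 137 and 151 and was at least 124-fold lower. Gm1848, a processed pseudogene, had 145, 173, 124 and 129.8 and was at least 121-fold lower. The receptor gene Kdr, through which endothelial cells sense VEGF, had 83.5, 92.8, 55.2 and 121 and was at least 74.3-fold lower. Ctla2a, also listed as an endothelial marker, had 56.3, 81.1, 191 and 160.1 and was at least 103-fold lower. The 18 endothelial markers as a whole summed to 6947 to 8325 in wild type and 6570 to 8383 in Vipr2-/-, so the groups overlapped, and Kdr and Ctla2a were the only calls.

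Lower transcripts followed the same form. Wild-type values were 39.9 to 89.9 for Tnfrsf12a, a cytokine receptor, 30.5 to 85.4 for Psmc3ip, a recombination factor, 42.7 to 95.1 for Myo5b, a myosin motor, and 45.4 to 112 for Lmo7. Their bounds were at least 61.6-fold, 60.2-fold, 56.8-fold and 56.7-fold lower. Psmc3ip (adjusted p = 0.134), Myo5b (0.121) and Lmo7 (0.163) were not called by edgeR. Atp8b5, Gm1848, Gm49527 and Kdr kept their calls in all 7 omissions. Calls were lost for Gm21985 without wild-type library 1, 2, 3 or 4 (adjusted p up to 0.0702), for Ctla2a without wild-type library 2, 3 or 4 (adjusted p up to 0.0757), for Tnfrsf12a without wild-type library 1, 3 or 4 (adjusted p up to 0.0646), for Psmc3ip without wild-type library 1, 2, 3 or 4 (adjusted p up to 0.0754), for Myo5b without wild-type library 3 (adjusted p up to 0.057) and for Lmo7 without wild-type library 1, 2, 3 or 4 or Vipr2-/- library 1, 2 or 3 (adjusted p up to 0.12). Of the 2 called rises with a 0, Rtp1, a chaperone of odorant receptors, had 0, 0, 27.0 and 0 in wild type and 90.0, 70.5 and 331 in Vipr2-/- (adjusted p = 0.0278). It was chosen for naming after its values were seen.

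Zeros were more frequent in Vipr2-/- libraries among genes of similar level in exercised wild type. The level in Vipr2-/- and the depth of the libraries were not matched. When tested genes were sorted by their mean in the 4 wild-type SVE libraries, which are not part of this contrast, those at 30 to 100 were at 0 in 3.79% to 11.6% of cases per wild-type library and 16.7% to 44.6% per Vipr2-/- library. Those at 100 to 300 were at 0 in 0.386% to 1.16% and 2.14% to 13.2%, and those of 1000 or more in 0% to 0.0192% and 0% to 0.0576%. At levels up to 300 the groups did not overlap, and Vipr2-/- library 3 was highest throughout.

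**Figure D4:**
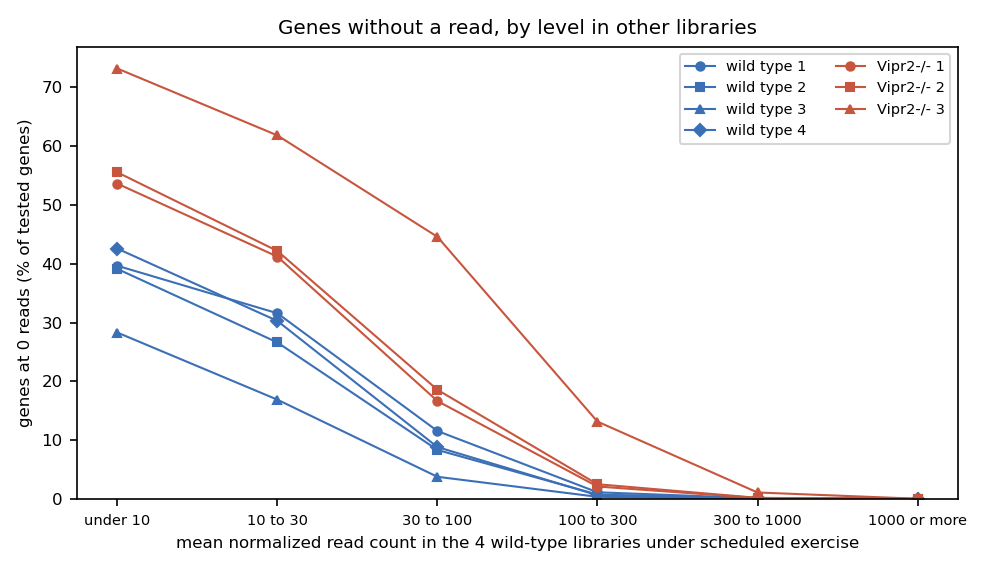
Percent of tested genes with 0 reads (y axis) in each of the 7 libraries, by the mean normalized read count of the gene in the 4 wild-type SVE libraries (x axis). All 3 Vipr2-/- lines (red) run above the 4 wild-type lines (blue) up to 300, and library 3 is highest, at 44.6% for genes of 30 to 100.

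Some zeros stood alone among high values. Genes with at least 100 in the other 6 libraries were at 0 in 2, 1, 0 and 1 cases in wild-type libraries 1 to 4 and in 8, 11 and 155 in Vipr2-/- libraries 1 to 3. Another 49 in Vipr2-/- library 3 were above 0 but under a 20th of the lowest other library, against 1 in all wild-type libraries. Adnp, a neuronal chromatin protein, is an example chosen after its values were seen, with 2562, 3691, 2974 and 2924 in wild type and 2403, 3262 and 0 in Vipr2-/-. No gene with such a lone 0 was called. A lone 0 spreads its own group widely, so a call was unlikely and its absence does not bear on other zeros.

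Libraries from exercised mice give the same contrast in samples that share none with the one above. They did enter the filter and the estimate of spread behind the calls, so they are not independent of the choice of called genes. In the SVE libraries, wild-type mice had been exercised for 35 to 40 days and Vipr2-/- mice for 6 to 9 days, and the series text places the wild-type SVE group at circadian time 24, so condition, duration and time differ along with the libraries. Of 45 genes called lower with reads throughout, other than Vipr2, 41 had a log2 fold change below 0 under SVE, where 53.2% of all genes with reads throughout did, and 10 were called lower. Their median was -1.03 without exercise and -0.61 under SVE. Of the 21 called higher, 16 were above 0 under SVE, where 46.8% of all such genes were, 5 were called higher and 1, Tmem51, was called lower. Medians of those 21 were 0.86 and 0.19. In all, limma called 32 genes under SVE (0.176%), 0.0495% higher and 0.127% lower. Of 42 called lower with a 0, 23 were below 0 under SVE, where 71.4% of genes with a 0 were, and 1 was called. Of the 32 at 0 in every unexercised Vipr2-/- library, 15 had reads in all 3 exercised Vipr2-/- libraries and 1 had reads in none.

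Named genes showed both patterns. Under SVE Avp had 11664, 15712, 10824 and 15186 in wild type and 4559, 5431 and 3203 in Vipr2-/- (log2 fold change -1.62, adjusted p = 0.00642). Sst changed by -1.62 (adjusted p = 0.00329), Vgf by -1.40 (0.00164), Chga by -0.93 (0.00755), Creb3l1 by -2.12 (0.019), Sod3 by -2.09 (0.00104), Mobp by -0.87 (0.0162) and Penk by 0.88 (0.019), each called in the same direction as without exercise. Vip missed the threshold there, at -0.86 (adjusted p = 0.0577). Values for Gpc3 (0.29), Kcnc2 (-0.03), Igfbp5 (-0.27), Gapdh (-0.37) and Aldoc (0.14) were not called. Kdr had 221, 133 and 213 in the exercised Vipr2-/- libraries and 157, 114, 228 and 114 in the exercised wild type, against 0 in every unexercised Vipr2-/- one.

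**Figure D5:**
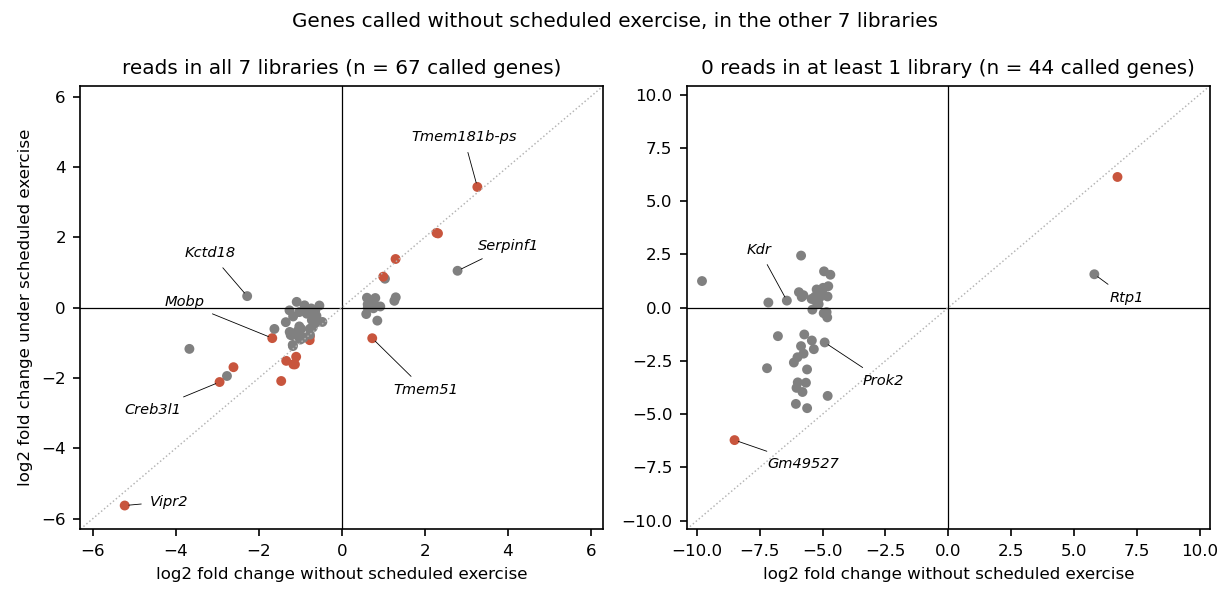
Log2 fold change under SVE (y axis) against that without exercise (x axis) for the called genes, with reads in all 7 unexercised libraries on the left and with a 0 on the right, red where the gene was also called under SVE and the diagonal dotted. On the left 41 of 45 lower genes (Vipr2 aside) and 16 of 21 higher genes keep their sign, while on the right those lower without exercise are spread on both sides of 0, 23 of 42 below.

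Around the targeted locus there was little else. Within 5 Mb of Vipr2 on chromosome 12, 70 other genes were tested and 1 was called, Tmem121, against 0.611% of all genes. Of the 54 with reads throughout, 22 lay above 0 and 32 below, with a median log2 fold change of -0.09.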

How the data were processed

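Total RNA of laser-cut SCN was sequenced in 14 libraries, grouped by their titles. Per the submitters' processing notes, the authors used Trimmomatic, FastQC, HISAT2, StringTie and DESeq2, with no versions given. In the deposited table each gene has a signal per library, made by the authors from gene counts and 1 size factor per library. Every value was a whole multiple of the value of 1 read to within 0.001 reads, which gave back the reads and the depth of each library. The design text names GRCm38 and the processing notes GRCm39. Coordinates of 54349 of 55401 genes had their identifier in GENCODE M21, and all of these had its GRCm38 positions.

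For the tests 1 was added to each value as pseudocount before taking log2, and limma 3.58.1 (R 4.3.3) fitted 1 mean per group over the 14 libraries with a mean-variance trend. Its p-values were adjusted by Benjamini-Hochberg over 18175 genes. The fit was also tested on simulated data. Recovered reads were tested with edgeR 4.0.16 and DESeq2 1.42.0 as alternatives. Others were pseudocounts of 0.5 and 10, other filters, TMM scaling, the 7 libraries alone, the replicate block and each library left out.

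Genes named are Vipr2 and 12 genes of the SCN, the 15 largest called rises and falls with reads throughout whose mean reached 50 in either group, the 10 largest falls to 0, called list members, and the 2 members with the smallest p of lists with none. Members and lists were chosen with earlier results of these data known. One called gene and a further gene that met the naming rule are not reported here. Promoters and their annotation are from RefSeq. Reads carry no molecular identifiers, so floors cover counting error only.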

Additional observations from a re-analysis of the deposited data

Results flagged for a closer look

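In 103 groups of 4 wild-type values looked at for the named genes, 1 library lay far from the other 3 in 6 cases, and chance alone gives about 1 in 20. Wild-type library 2 was the high one for Fos (8106, the others 562 to 1326), Fosb (3408, the others 129 to 405) and Per1 (4266, the others 2799 to 2965). Wild-type library 3 was high for Avp (14959, the others 12873 to 13214) and low for Psmc3ip (30.5, the others 84.5 to 85.4). Wild-type library 1 was high for Aldoc (33509, the others 29262 to 29904).

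The genotype effect differed between the conditions for 3 named genes, by the interaction term in limma (effect without exercise minus effect under SVE, log2). The difference was -7.39 for Gm1848 (adjusted p = 0.00512), -6.75 for Kdr (adjusted p = 0.0117) and 1.73 for Nr1d1 (adjusted p = 0.0128). Over all tested genes 4 passed this test. The other was Tmem51, outside the naming rule, with a difference of 1.61 (adjusted p = 0.0117) and calls in opposite directions in the 2 conditions. Gm1848 and Kdr were at 0 in all 3 unexercised Vipr2-/- libraries, so their sizes depend on the pseudocount. Exercise, its duration and the stated circadian time differ together between the conditions and cannot be told apart.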

How the results depend on the processing

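Against 111 calls, 67 with reads throughout and 44 with a 0, the 7 libraries alone gave 53 in all and 22 with reads throughout, and DESeq2 gave 536, 309 and 227. Among genes with a 0, edgeR gave 20, no filter 28 and a filter of 50 in 3 libraries 26. The replicate block gave 49, 38 and 11, but residuals of same-numbered libraries correlated at 0.0026, -0.0167 and -0.0123, and the numbers are not shown to pair the samples. Leaving out 1 library gave 36 to 269, 22 to 135 and 14 to 135. Added after the data were seen, the share of genes at 0 as a covariate gave 16, 8 and 8, and omission of the library with most zeros in each Vipr2-/- group gave 232, 144 and 88. The cause of these shifts was not tested. TMM scaling moved the median log2 fold change by less than 0.1 and kept 48 of the 50 named calls. Of these 50 calls edgeR kept 41, the replicate block 28 and the 7 libraries alone 20. The difference in the share of genes at 0 ranged from 4.53 to 9.28 percentage points over omissions and was 4.00 with the filter of 50. Of the 50 named called genes 20 kept their call in all 7 omissions. Of 950 values for these genes under all alternatives 697 kept the call, 253 lost it and none changed sign. Among named genes without a call, the pericyte marker Abcc9 (-2.08) ranged from -3.60 to 0.42 over omissions and was 0.16 with the covariate and 0.42 without the libraries with most zeros, the microglial marker Fcrls (-2.47) ranged from -4.13 to 0.15 and was 0.15 without those libraries, and Fos ranged from -1.14 to 0.14. Whether depth sets the genes near 0 was not tested. Vipr2-/- library 3 had the most tested genes at 0 (20.7%) and the most reads of its group (33349291).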
